A study of Mus musculus with 20 samples.

Results

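Polysome-associated RNA was compared on day 3 of treatment between mouse embryonic stem cells (ESCs) deleted for Cnot3 (KO) and undeleted cells (WT). The comparison took the 4 libraries whose titles name the polysome fraction out of the 20 of the series, 2 KO and 2 WT, and was fitted on these 4 alone. KO cells were Cnot3 conditional knockout ESCs treated with 0.1 µM 4-hydroxytamoxifen (4OHT), a ligand used to activate tamoxifen-dependent Cre recombinase. WT cells are described in the design as the same conditional cells treated with DMSO, the solvent. The labels of the 2 WT polysome libraries instead name E14Tg2a ESCs, a standard feeder-independent ESC line, as their source, while the KO libraries are labelled Cnot3 cKO ESCs. Line, 4OHT and deletion cannot be told apart in this comparison. All 4 libraries carry the strain label C57BL/6, but their source labels name different ESCs, so that label does not show a shared genetic background. The design calls the 2 replicates of each arm biological.

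CNOT3 is a subunit of CCR4-NOT, the main cytoplasmic deadenylase complex, which shortens the poly(A) tails of mRNAs and so starts their decay. The complex is also recruited by microRNA-bound Argonaute and by RNA-binding proteins, and a shortened tail lowers translation. Polysome fractions hold mRNAs bound by several ribosomes at once, so their RNA samples what a cell is translating. Mouse ESCs keep an undifferentiated state through transcription factors such as POU5F1, SOX2 and NANOG, and loss of that network opens routes to trophectoderm, the outer lineage of the blastocyst, and to the germ layers.

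Reads assigned to genes came to 14219268 and 16115917 in KO replicates 1 and 2, and to 13832829 and 16688555 in WT replicates 1 and 2. Levels are CPM (counts scaled to a common library size) with library sizes adjusted by the trimmed mean of M values (TMM), and values of both replicates are given throughout in the order 1, 2. CPM are not divided by transcript length, so levels of different genes are not compared, and they are relative within a library, so a change shared by all mRNAs of the fraction would not be seen. The 8 ESC markers used as a check summed to 4025 and 3295 CPM of library totals in KO and 7151 and 6359 CPM in WT. Of 14 markers of feeder fibroblasts, 4 (Col3a1, Dcn, Postn and Fap) had no read in any library, and the 14 summed to 92.4 and 89.8 CPM in KO and 53.8 and 72.3 CPM in WT, most of it Thy1. Ptprc, the pan-leukocyte marker, had no read in any library. WT replicate 2 stood apart, with 5.02% of gene counts in mitochondrially encoded mRNAs, against 1.38% in WT replicate 1 and 1.16% and 0.912% in KO. It also had the highest share of reads outside annotated genes, 12.9%, against 7.05% in WT replicate 1 and 4.75% and 6.61% in KO. Between the KO libraries the median absolute log2 difference per gene was 0.165, and between the WT libraries it was 0.344.

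Cnot3 (ENSMUSG00000035632; chromosome 7, 3645268 to 3661109, plus strand, GRCm38) had 17.3 and 18.9 CPM in KO, against 101 and 85.6 CPM in WT (log2 change -2.36 ± 0.21, adjusted p = 0.0014). Both KO libraries lay far below both WT libraries, at 19.4% of the WT mean. Adjusted p refers throughout to edgeR's quasi-likelihood test with Benjamini-Hochberg adjustment over the 15157 genes tested, the log2 change is KO over WT, and ± is its standard error. The p-values measure the spread between these 4 samples.

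The other 10 subunits of CCR4-NOT did not pass the test. Over the 11 subunits with Cnot3, the median log2 ratio was -0.17 against WT replicate 1 alone and 0.09 against WT replicate 2 alone. The sign of that median turned with the WT library. Cnot1, the scaffold, had 219 and 229.8 CPM in KO, against 322 and 211 CPM in WT (log2 change -0.25 ± 0.25, adjusted p = 0.51). Cnot6, one of the CCR4-type nucleases, had 91.8 and 114 CPM in KO, against 147 and 189 CPM in WT, and the groups did not overlap (log2 change -0.71 ± 0.23, adjusted p = 0.053). Cnot2, the partner of CNOT3 in the NOT module, had 228 and 224 CPM in KO, against 183 and 154 CPM in WT (log2 change 0.43 ± 0.21, adjusted p = 0.17), with both KO libraries above both WT libraries. Among 26 other deadenylation and decapping factors, Btg2, an antiproliferative protein that binds the complex's nucleases, rose (357 and 356 CPM in KO, against 104 and 129 CPM in WT; log2 change 1.62 ± 0.23, adjusted p = 0.0032). Tnrc6c, a GW182 protein that links Argonaute to CCR4-NOT, fell (-0.83, adjusted p = 0.031), as did Pan3, a subunit of the PAN2-PAN3 deadenylase (-0.76, adjusted p = 0.044). No other of these 26 factors was called, beside 12.3% higher and 9.41% lower over all genes. The calls of Tnrc6c and Pan3 ended with either KO library left out (adjusted p up to 0.53).

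Of the 15157 genes tested, 1860 (12.3%) were higher and 1427 (9.41%) were lower in KO at an adjusted p under 0.05, and the median change over all of them was -0.03. Changes of at least 1 on the log2 scale made up 1535 of the calls upward and 922 of the calls downward. The shares over all genes, 12.3% higher and 9.41% lower, are the background for every list count in this text. Scaling by library totals alone, which moves the median of all genes to 0.15, gave 2758 higher and 1004 lower, 73.3% of the calls being higher, against 56.6% with TMM. For each list described here as having none called in a direction, DESeq2 called at most 1 member in that direction, and at most 2 members had an unadjusted p under 0.05. The highest changes among protein-coding genes with an average log2 CPM of at least 3 were those of Stmn4 (5.08), a stathmin of neurons, and Robo3 (4.77), an axon guidance receptor. Robo3 had 24.7 and 19.6 CPM in KO, against 0.762 and 0.841 CPM in WT (log2 change 4.77 ± 0.33, adjusted p = 0.0011). Krt16 (4.70), Dmkn (4.59) and Krtdap (4.26), which are known from epidermis, Cidea (4.40), a lipid droplet protein, Ccdc184 (4.17) and Edn1 (4.07), which encodes endothelin 1, followed. At the other end, A2m had 1.66 and 0.752 CPM in KO, against 11.9 and 20.8 CPM in WT (log2 change -3.77 ± 0.44, adjusted p = 0.002). The lowest changes after it were those of Zic2 (-3.58), Fn1 (-3.03), Lefty1 (-2.97), Enpp3 (-2.93), Fut9 (-2.90), Cnpy1 (-2.72) and Mep1b (-2.61). Of these 16 genes, Stmn4 and Lefty1 lost the call without WT replicate 1 (adjusted p = 0.095 and 0.2) and without WT replicate 2 (adjusted p = 0.13 and 0.31).

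**Figure D1:**
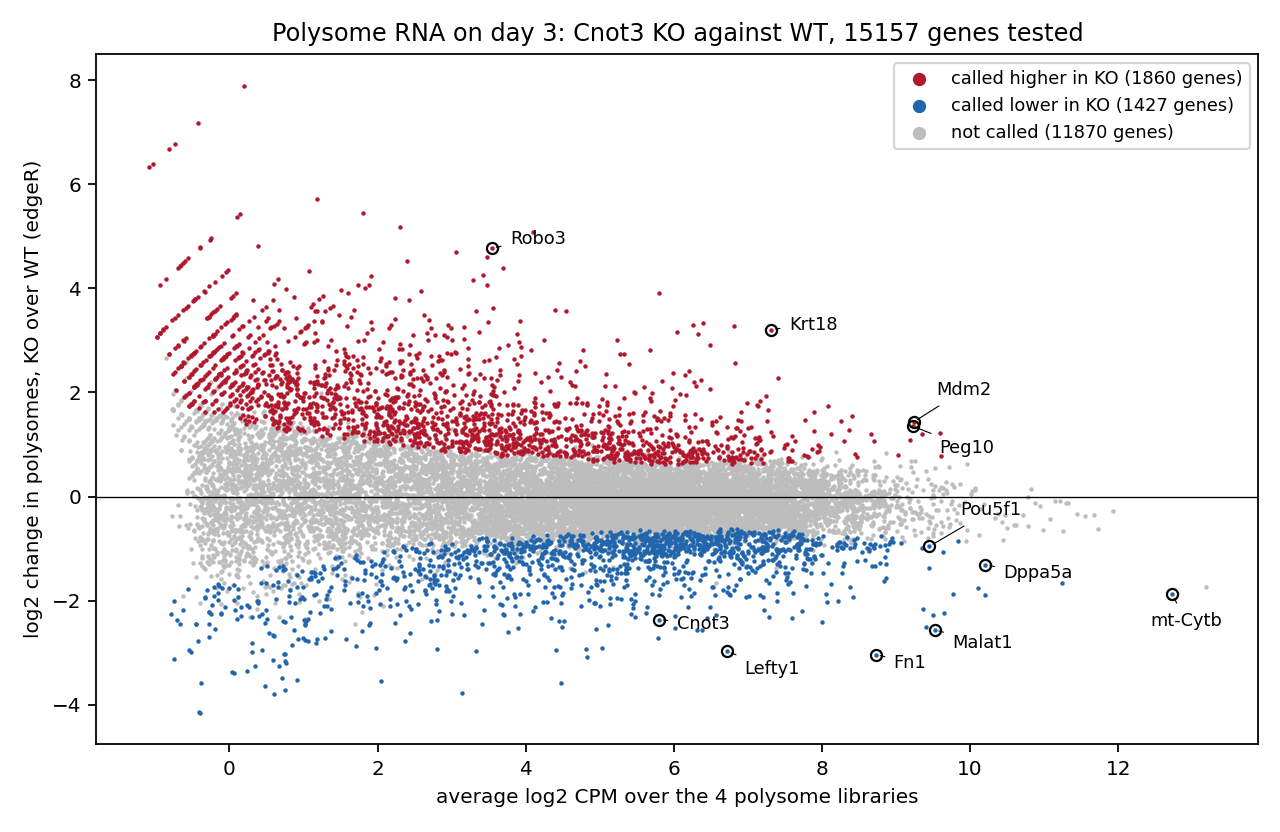
Log2 change in polysomes (KO over WT, vertical axis) against average log2 CPM over the 4 libraries (horizontal axis), 1 point a gene, with 1860 genes called higher in red, 1427 called lower in blue and the rest in grey. Circled genes are named in the text: Robo3 and Krt18 lie high, Fn1 and Lefty1 low, and mt-Cytb stands at the far right, among the highest average levels.

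The 6 genes of highest average CPM called higher with a log2 change of at least 1 were Sqstm1, Ccng1, Mdm2, Peg10, Bex1 and Gtse1. Mdm2 had 762 and 1004 CPM in KO, against 305 and 348 CPM in WT (log2 change 1.44 ± 0.26, adjusted p = 0.0077), and Sqstm1, which encodes an autophagy receptor, had 1081 and 1095 CPM in KO, against 513 and 416 CPM in WT (log2 change 1.23 ± 0.25, adjusted p = 0.012). Both KO libraries of both genes lay well above both WT libraries. Those called lower were mt-Cytb, mt-Nd5, mt-Nd4, Dppa5a, Apoe and mt-Nd6. Dppa5a, an RNA-binding protein typical of ESCs, had 752 and 603 CPM in KO, against 1685 and 1688 CPM in WT (log2 change -1.32 ± 0.26, adjusted p = 0.011). Apoe, a lipoprotein component, had 576 and 431 CPM in KO, against 1207 and 2200.5 CPM in WT, with the WT libraries well apart (log2 change -1.76 ± 0.34, adjusted p = 0.01). Leaving out KO replicate 2 ended the calls of all 12 of these genes, with an adjusted p of 0.2 for Mdm2, 0.23 for Sqstm1, 0.36 for Dppa5a and 0.18 for Apoe. Such a fit sets 1 KO library against 2 WT libraries and takes its spread from the WT pair alone. For most genes named further on, calls that ended in fits without 1 library are given with the highest adjusted p of those fits.

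Part of the list of pluripotency transcription factors, which also holds Tcl1, a coactivator of the kinase AKT, fell in KO polysomes, and no member rose. Of 24 tested, 10 fell, with a median of -0.66 against -0.03 over all genes. With 1 library left out in turn, 4 to 18 were called lower. Pou5f1 (ENSMUSG00000024406; chromosome 17, 35506018 to 35510772, plus strand, GRCm38) had 551 and 398 CPM in KO, against 1100.5 and 744 CPM in WT (log2 change -0.96 ± 0.29, adjusted p = 0.047), a level of 51.5% of WT. Sox2 had 569.6 and 442 CPM in KO, against 965 and 779.8 CPM in WT and Nanog 378 and 367 CPM in KO, against 571 and 389 CPM in WT. Both factors had lower levels in both KO libraries than in either WT library, and neither passed the test (log2 change -0.79 ± 0.26, adjusted p = 0.06 for Sox2 and log2 change -0.37 ± 0.26, adjusted p = 0.33 for Nanog). Several factors of the naive state changed more than these: Nr0b1 had 47.6 and 32.6 CPM in KO, against 176 and 120.5 CPM in WT (log2 change -1.89 ± 0.27, adjusted p = 0.0036), and Gbx2 12.5 and 10.9 CPM in KO, against 52.5 and 44.8 CPM in WT (log2 change -2.05 ± 0.23, adjusted p = 0.0017). Tcl1 (-1.77 ± 0.25), Prdm14 (-1.61 ± 0.23), Klf2 (-1.41 ± 0.23) and Esrrb (-0.99 ± 0.28) also fell. Klf4 (-0.56 ± 0.23), Tfcp2l1 (-0.25 ± 0.28), Klf5 (-0.04 ± 0.34), Utf1 (0.23 ± 0.24) and Tbx3 (0.25 ± 0.23) did not pass the test. The change of Nanog depended on the WT library, being -0.06 without WT replicate 1 and -0.62 without WT replicate 2. In bulk RNA, fewer cells of a type and less RNA per cell cannot be told apart. The calls of Pou5f1, Klf2 and Esrrb ended with either KO library left out (adjusted p up to 0.58).

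Among 22 other ESC-enriched genes, 11 fell and none rose (median -0.76; 3 to 20 lower with 1 library left out). Fgf4, the growth factor that ESCs secrete, had 71.6 and 57.2 CPM in KO, against 282 and 363 CPM in WT (log2 change -2.32 ± 0.25, adjusted p = 0.0017). Tdgf1, which encodes the Nodal co-receptor Cripto, had 256 and 151 CPM in KO, against 826 and 1469 CPM in WT (log2 change -2.50 ± 0.37, adjusted p = 0.0039). Lin28a, an RNA-binding protein that blocks let-7 maturation, had 176 and 154 CPM in KO, against 541 and 369 CPM in WT (log2 change -1.46 ± 0.26, adjusted p = 0.0075). The WT libraries of these 3 genes differ in opposite ways, Tdgf1 and Fgf4 being higher and Lin28a lower in WT replicate 2, and every KO library lies below both. The methylcytosine dioxygenases Tet1 (-1.45 ± 0.20) and Tet2 (-1.59 ± 0.24) fell, whereas the DNA methyltransferases Dnmt1, Dnmt3a and Dnmt3b did not pass the test (-0.43, -0.25 and -0.64). The calls of Lin28a and Tet1 ended with either KO library left out and that of Tet2 with KO replicate 1 left out (adjusted p up to 0.15).

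Markers of the post-implantation epiblast were mostly lower. Of 11 tested, 8 fell and 1 rose (median -1.35; 4 to 9 lower with 1 library left out). Zic2, a zinc finger factor of primed pluripotency, had 4.13 and 2.72 CPM in KO, against 42.1 and 39.8 CPM in WT (log2 change -3.58 ± 0.29, adjusted p = 0.0011). Its relative Zic5 (-2.53 ± 0.30) fell with it, as did Foxd3, a forkhead repressor (3.33 and 2.78 CPM in KO, against 14.6 and 14.8 CPM in WT; -2.27 ± 0.28). The one that rose was Cldn6, a tight junction claudin also found in other early epithelia (157 and 205 CPM in KO, against 37.1 and 80.3 CPM in WT; log2 change 1.62 ± 0.34, adjusted p = 0.013).

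Trophectoderm and trophoblast markers rose. Of 21 tested out of 25 listed, 17 were higher and none was lower in KO, with a median of 2.63 and 11 to 14 called with 1 library left out. Low members such as Elf5 passed the filter on low counts through the KO libraries alone, so count and median describe only the members that passed. Cdx2 (ENSMUSG00000029646; chromosome 5, 147300805 to 147307270, minus strand, GRCm38), a homeobox factor that specifies the lineage, had 3.73 and 8.1 CPM in KO, against 0.152 and 0.518 CPM in WT (log2 change 4.07 ± 0.60, adjusted p = 0.0039), from 56 and 140 reads in KO and 2 and 8 in WT. Gata3 had 4.99 and 7.58 CPM in KO, against 0.381 and 0.388 CPM in WT (log2 change 4.00 ± 0.44, adjusted p = 0.0017), and Hand1, a factor of trophoblast giant cells, 67.4 and 141 CPM in KO, against 4.96 and 8.8 CPM in WT (log2 change 3.92 ± 0.41, adjusted p = 0.0017). Elf5, a later trophoblast factor, rested on 12 and 31 reads in KO and 0 and 1 in WT (adjusted p = 0.0088), too few for a fold. In each of these genes both KO libraries lay above both WT libraries, and in each of them KO replicate 2 was the higher. Eomes, which trophoblast stem cells also express, did not pass the test (7.46 and 6.42 CPM in KO, against 7.93 and 6.99 CPM in WT; log2 change -0.10 ± 0.27, adjusted p = 0.81), nor did Tfap2a (0.64 ± 0.51), Ets2 (0.61 ± 0.26) or Fgfr2 (-0.91 ± 0.30).

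Keratins of simple epithelia rose as well. The keratin and trophectoderm lists overlap, Krt19 being on both, so they are not separate support for each other. Other lists share members as well, and a shared gene is counted in each of its lists. Krt18 (ENSMUSG00000023043; chromosome 15, 102028180 to 102032027, plus strand, GRCm38) had 157 and 415 CPM in KO, against 25.2 and 36.7 CPM in WT (log2 change 3.21 ± 0.44, adjusted p = 0.003), and its partner Krt8 83 and 223 CPM in KO, against 12.7 and 17.7 CPM in WT (log2 change 3.33 ± 0.44, adjusted p = 0.0028). Krt19 had 99.2 and 189 CPM in KO, against 16.6 and 16.6 CPM in WT, the WT libraries being almost equal (log2 change 3.12 ± 0.32, adjusted p = 0.0017). The KO libraries differed from each other by more than the WT libraries did in all 3. Without WT replicate 1 or 2, where the spread comes from the KO pair alone, calls ended for Krt18 (adjusted p = 0.28 and 0.3), Krt8 (0.28 and 0.3), Krt19 (0.063 and 0.11) and Hand1 (0.14 and 0.16), while the changes stayed between 2.96 and 4.39. Of 32 keratin and junction genes tested, 14 rose and 3 fell (median 0.76; 10 to 14 higher with 1 library left out). Desmosome genes were among those that rose: Pkp3 had 58.1 and 68 CPM in KO, against 16.9 and 17.1 CPM in WT (log2 change 1.89 ± 0.21, adjusted p = 0.0018), and Dsp (2.14 ± 0.34), Dsc2 (2.38 ± 0.35), Pkp2 (1.67 ± 0.23) and Perp (1.93 ± 0.28) rose too. Those that fell were Grhl2, an epithelial transcription factor (-1.09 ± 0.22), Esrp1, an epithelial splicing regulator (-0.76 ± 0.21), and Epcam (-0.96 ± 0.28), an adhesion molecule that ESCs express. Cdh1, which encodes E-cadherin, did not pass the test (257 and 327 CPM in KO, against 252 and 522 CPM in WT; -0.41 ± 0.34). The calls of Grhl2, Esrp1 and Epcam ended with either KO library left out and that of Dsp with either WT library left out (adjusted p up to 0.44).

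**Figure D2:**
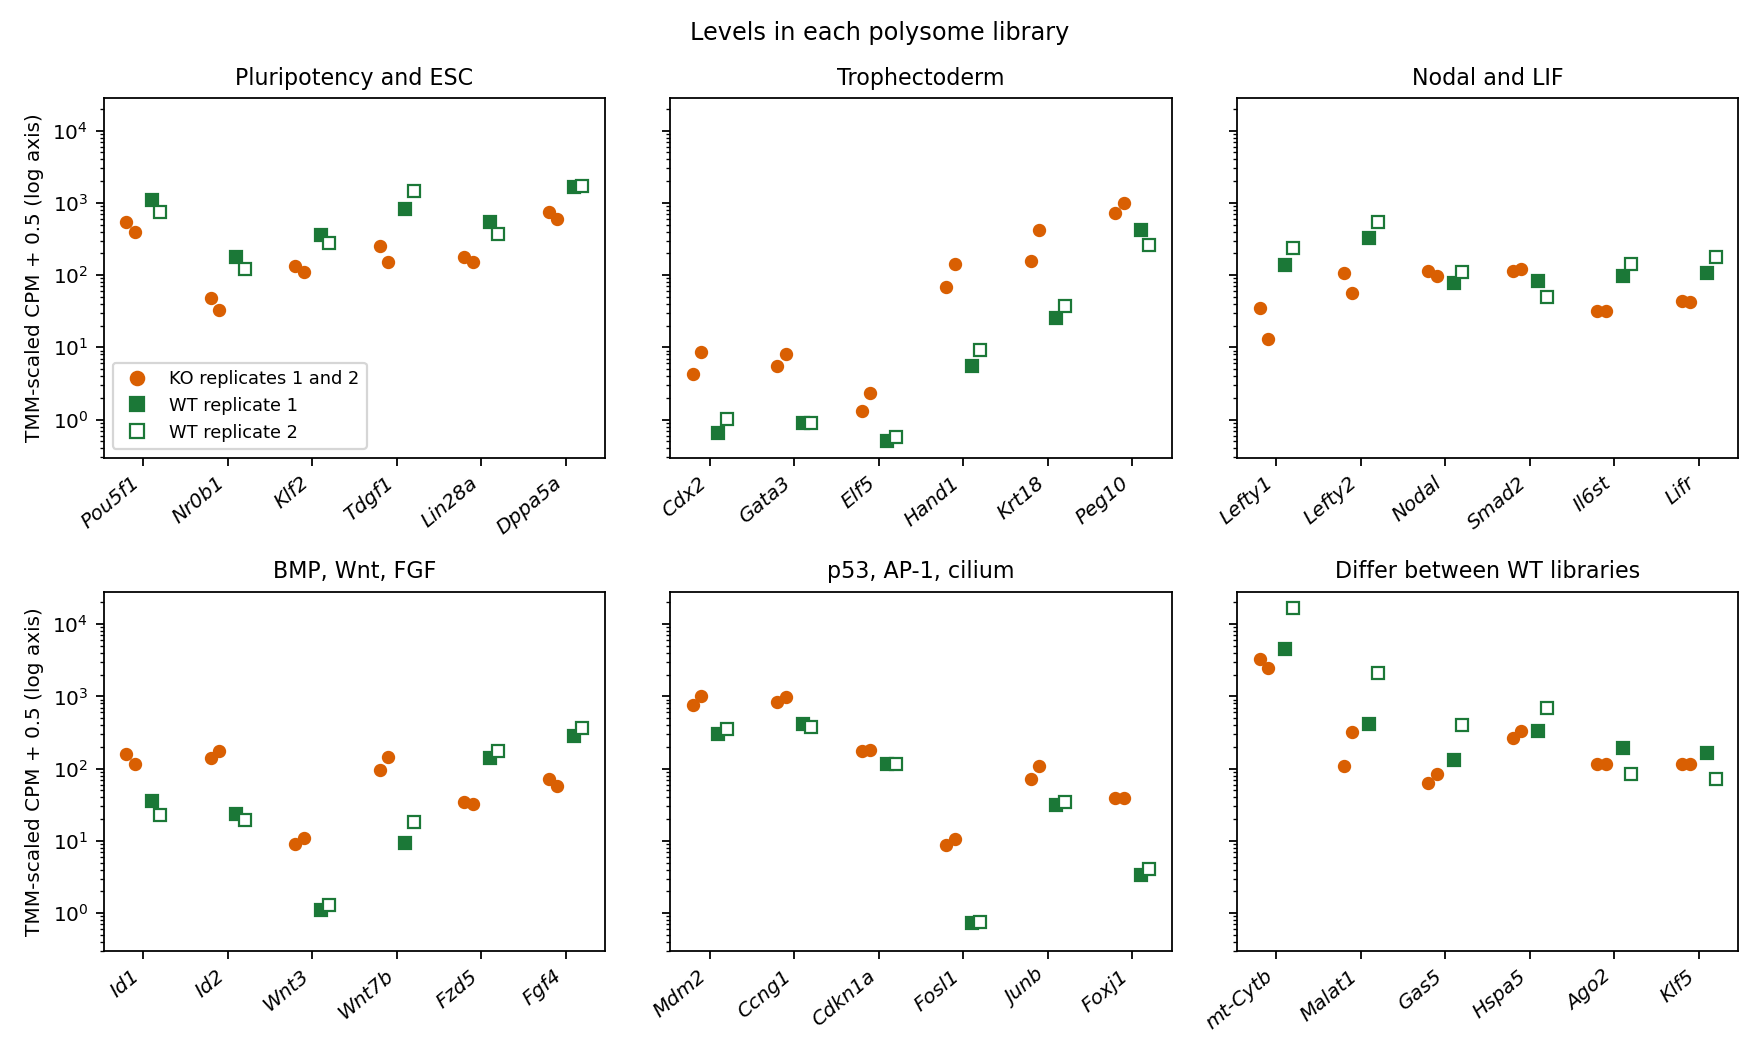
TMM-scaled CPM plus 0.5 on a log axis in each polysome library for 36 genes in 6 panels, KO replicates as circles (1 left of 2) and WT replicates as squares (1 filled, 2 open). Krt18 and Hand1 stand above both WT libraries in both KO libraries, Lefty1 and Fgf4 below, and in the last panel mt-Cytb, Malat1, Gas5 and Hspa5 are higher and Ago2 and Klf5 lower in WT replicate 2 than in WT replicate 1.

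The KO libraries differed from each other in these same groups, and in others. The 10 trophectoderm markers used as a check summed to 506 and 1174 CPM of library totals in KO and 74.5 and 95.1 CPM in WT. Most of each sum came from the keratins Krt7, Krt8, Krt18 and Krt19. Among 21 trophectoderm markers, 18 (85.7%) were higher in KO replicate 2 than in KO replicate 1, with a median log2 difference of 0.59, and among keratin and junction genes 30 of 32 (93.8%) were, with a median of 0.32. Over all tested genes 50.3% were higher in KO replicate 2, and among all genes called higher 67.4%. Lists outside these groups differed as well. Higher in KO replicate 2 were 6 of 6 nuclear long noncoding RNAs (median log2 difference 0.82), 8 of 8 microRNA hosts and hairpins (0.66) and 7 of 8 snoRNA hosts (0.42). Only 4 of 73 mitochondrial ribosomal proteins (median -0.21) and 2 of 31 proteasome subunits (-0.20) were higher in it. Lefty1, an inhibitor of Nodal, was the protein-coding gene at an average log2 CPM of at least 5 with the lowest ratio, with a log2 ratio of KO replicate 2 over KO replicate 1 of -1.44. Lefty2 (-0.91) and Tdgf1 (-0.76) came next, and Krt8 (1.42) and Krt18 (1.40) had the highest ratios. These genes were picked for that ratio, so no test was run.

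Genes of the Nodal and activin pathway, a TGF-β branch active in ESCs and epiblast, were lower at several levels. Of 18 tested, 8 fell and 1 rose (median -0.65; 5 to 9 lower with 1 library left out). The ligand Nodal itself had 112 and 96.5 CPM in KO, against 76.8 and 112 CPM in WT, with overlapping groups (log2 change 0.15 ± 0.23, adjusted p = 0.68). The activin subunit Inhbb had 7.19 and 6.65 CPM in KO, against 32.5 and 40.4 CPM in WT (log2 change -2.40 ± 0.25, adjusted p = 0.0017), and Gdf3, another TGF-β ligand, fell (-1.57 ± 0.27). Receptors Acvr1b (-0.82 ± 0.22) and Acvr2b (-0.75 ± 0.23) and the nuclear partner Foxh1 (-0.86 ± 0.24) fell by less than 1 on the log2 scale. The feedback inhibitors Lefty1 and Lefty2, which are also targets of the pathway, had 35 and 12.6 CPM in KO, against 136 and 237 CPM in WT for Lefty1 (log2 change -2.97 ± 0.46, adjusted p = 0.0044) and 106 and 56.5 CPM in KO, against 322 and 539 CPM in WT for Lefty2 (log2 change -2.40 ± 0.36, adjusted p = 0.0041). Smad2, a signal transducer, was the gene that rose (114 and 122 CPM in KO, against 81.1 and 49.9 CPM in WT; log2 change 0.85 ± 0.25, adjusted p = 0.042). The calls of Acvr1b, Acvr2b, Foxh1 and Smad2 ended with either KO library left out, that of Lefty1 with either WT library left out and that of Lefty2 with WT replicate 2 left out (adjusted p up to 0.41).

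Receptors of leukemia inhibitory factor, the cytokine that maintains mouse ESCs in culture, were lower. Il6st, which encodes the shared subunit gp130, had 31.8 and 31.1 CPM in KO, against 96.5 and 139.9 CPM in WT (log2 change -1.91 ± 0.24, adjusted p = 0.0023). Lifr, the ligand-specific subunit, had 42.7 and 42 CPM in KO, against 107 and 176.5 CPM in WT (log2 change -1.75 ± 0.26, adjusted p = 0.0041). The KO libraries were nearly equal and below both WT libraries for both receptors. Downstream, Socs2, a feedback inhibitor, fell (55.7 and 44.9 CPM in KO, against 147 and 144 CPM in WT; -1.53 ± 0.21), as did the kinase Pim3 (-1.03 ± 0.21), whereas Stat3 (-0.25 ± 0.20), Socs3 (-0.58 ± 0.20) and Klf4 did not pass the test. Lif itself rose at a low level (17 and 22.3 CPM in KO, against 9.38 and 12 CPM in WT; log2 change 0.88 ± 0.27, adjusted p = 0.044). The list counts that follow stand beside 12.3% higher and 9.41% lower over all genes. In all, 4 of 13 genes fell and 1 rose (median -0.56; 2 to 6 lower with 1 library left out). The calls of Pim3 and Lif ended with either KO library left out and that of Socs2 with KO replicate 2 left out (adjusted p up to 0.49).

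In the FGF and ERK pathway, 6 of 23 genes fell and 2 rose (median -0.27; 2 to 11 lower with 1 library left out). Besides Fgf4, the feedback genes Spry4 (117 and 88.1 CPM in KO, against 444 and 233 CPM in WT; log2 change -1.73 ± 0.32, adjusted p = 0.0089) and Dusp6, an ERK phosphatase (37.1 and 28.2 CPM in KO, against 89.1 and 58.4 CPM in WT; log2 change -1.18 ± 0.26, adjusted p = 0.016), were lower. Dusp5, another phosphatase of ERK, moved the other way (48.1 and 57.3 CPM in KO, against 15.5 and 15.7 CPM in WT; log2 change 1.76 ± 0.22, adjusted p = 0.0023), as did Fgfbp3, an FGF-binding protein (25.9 and 27.4 CPM in KO, against 1.6 and 5.56 CPM in WT; log2 change 2.87 ± 0.46, adjusted p = 0.0049). The receptors Fgfr1 (-0.65 ± 0.27) and Fgfr2 and the kinases Mapk3 (-0.53 ± 0.21) and Map2k1 (0.29 ± 0.23) did not pass the test. The numbers that rose and fell in this list stand beside 12.3% higher and 9.41% lower over all genes. The calls of Spry4 and Dusp6 ended with KO replicate 2 left out (adjusted p up to 0.17).

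Of the Id genes, direct targets of BMP signalling that block basic helix-loop-helix factors, 3 rose and 1 fell. Id2 (ENSMUSG00000020644; chromosome 12, 25093799 to 25097140, minus strand, GRCm38) had 140.4 and 176 CPM in KO, against 23.1 and 18.9 CPM in WT (log2 change 2.91 ± 0.23, adjusted p = 0.0011), and Id1 158 and 114 CPM in KO, against 35.4 and 22.5 CPM in WT (log2 change 2.23 ± 0.28, adjusted p = 0.0024). Id3 had 70.2 and 62 CPM in KO, against 32.2 and 32 CPM in WT, the WT libraries being almost equal (log2 change 1.04 ± 0.20, adjusted p = 0.0094). Id4 went the other way at a low level (2.46 and 2.55 CPM in KO, against 5.57 and 5.89 CPM in WT; log2 change -1.19 ± 0.30, adjusted p = 0.025). Smad6, an inhibitory SMAD and BMP target, rose (23.2 and 27.5 CPM in KO, against 9.0 and 9.77 CPM in WT; log2 change 1.43 ± 0.24, adjusted p = 0.0059), and the ligand Bmp4 fell (42.8 and 39 CPM in KO, against 70.4 and 102 CPM in WT; log2 change -1.07 ± 0.23, adjusted p = 0.014). The receptors Bmpr1a (-0.14 ± 0.24) and Bmpr2 (0.73 ± 0.28) and the transducers Smad1 (0.37 ± 0.24) and Smad5 (0.36 ± 0.21) did not pass the test. The list counts that follow stand beside 12.3% higher and 9.41% lower over all genes. Over the list, 4 of 17 rose and 2 fell, with a median of 0.37 (2 to 8 higher with 1 library left out). The calls of Id3, Id4 and Bmp4 ended with either KO library left out and that of Smad6 with KO replicate 2 left out (adjusted p up to 0.25).

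All 5 Wnt ligands tested from the pathway list rose and both Frizzled receptors on it fell. Wnt3 had 8.65 and 10.5 CPM in KO, against 0.61 and 0.776 CPM in WT (log2 change 3.77 ± 0.36, adjusted p = 0.0014), Wnt4 15 and 27.8 CPM in KO, against 1.07 and 2.33 CPM in WT (log2 change 3.63 ± 0.44, adjusted p = 0.0022), and Wnt7b 94 and 142 CPM in KO, against 8.84 and 17.5 CPM in WT (log2 change 3.16 ± 0.35, adjusted p = 0.0017). Every KO library lay several fold above both WT libraries for these ligands, and Wnt6 (2.27 ± 0.31) and Wnt8a (1.95 ± 0.36) rose too. Wnt7b is also on the trophectoderm list and counted there. Fzd5 had 33.6 and 31.5 CPM in KO, against 142 and 174 CPM in WT (log2 change -2.28 ± 0.21, adjusted p = 0.0014), and Fzd7 36.9 and 30.2 CPM in KO, against 109 and 182 CPM in WT (log2 change -2.12 ± 0.28, adjusted p = 0.0027). The co-receptors Lrp5 (-0.23 ± 0.22) and Lrp6 (-0.03 ± 0.20) and the transducer Ctnnb1, β-catenin (0.13 ± 0.25), did not pass the test. Among nuclear factors and targets, Lef1 fell (3.73 and 3.18 CPM in KO, against 11.1 and 8.8 CPM in WT; log2 change -1.52 ± 0.29, adjusted p = 0.0095), Tcf7 (0.96 ± 0.23) and Cdx1 (2.72 ± 0.41) rose, and Axin2, a target much used as a readout, did not pass the test (17.4 and 23.3 CPM in KO, against 12.8 and 9.77 CPM in WT; log2 change 0.85 ± 0.27, adjusted p = 0.052). In all, 9 of 24 genes rose and 3 fell (median 0.36; 6 to 12 higher with 1 library left out). The primitive streak marker T, brachyury, rose at a low level, from 28 and 46 reads in KO and 9 and 4 in WT (log2 change 2.28 ± 0.52, adjusted p = 0.018). Of 7 mesoderm and streak markers, 3 rose, T, Wnt3 and Wnt3a (2.70 ± 0.40), and 1 fell, Bmp4. T, Wnt3 and Wnt3a are near the filter on low counts in WT, so these numbers, and that of the Wnt ligands, describe only the members that passed. The mesoderm markers used as a check summed to 4.78 and 7.2 CPM of library totals in KO and 2.46 and 1.38 CPM in WT. The calls of Lef1 and T ended with KO replicate 2 left out and that of Tcf7 with either KO library left out (adjusted p up to 0.3).

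Targets and partners of YAP, the effector of the Hippo pathway, rose in part, beside 12.3% higher and 9.41% lower over all genes. Of 15 tested, 4 rose and none fell (median 0.33; 0 to 7 higher with 1 library left out). Amotl1, an angiomotin that binds YAP, had 91.5 and 120.1 CPM in KO, against 44.7 and 38.9 CPM in WT (log2 change 1.34 ± 0.22, adjusted p = 0.0054), and the receptor kinase Axl 23.7 and 32 CPM in KO, against 9.07 and 14.4 CPM in WT (log2 change 1.25 ± 0.29, adjusted p = 0.019). Tead4, the TEAD factor of trophectoderm, had 38.5 and 37.6 CPM in KO, against 23.6 and 13.9 CPM in WT (log2 change 1.03 ± 0.28, adjusted p = 0.03), and Tgfb2 rose at a low level (1.59 ± 0.43). Yap1 itself did not pass the test (264 and 269 CPM in KO, against 274 and 191 CPM in WT; 0.20 ± 0.24). Of 17 genes listed, 15 were found by symbol in the counts. Ccn1, given under other observations, is not on the list under that symbol, so the list counts do not cover it. The calls of Amotl1 and Axl ended with KO replicate 2 left out and those of Tead4 and Tgfb2 with either KO library left out (adjusted p up to 0.34).

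Targets of p53 rose or were not called, beside 12.3% higher and 9.41% lower over all genes. Of 25 tested, 9 rose and none fell (median 0.32; 5 to 12 higher with 1 library left out). Besides Mdm2, the ubiquitin ligase that degrades p53, Ccng1, a cyclin induced by p53, had 824 and 991 CPM in KO, against 408 and 381 CPM in WT (log2 change 1.20 ± 0.25, adjusted p = 0.012), and the kinase Plk2 209.5 and 236 CPM in KO, against 62.3 and 62.8 CPM in WT (log2 change 1.83 ± 0.21, adjusted p = 0.0018). Cdkn1a, which encodes p21, had 176.9 and 183 CPM in KO, against 114 and 115 CPM in WT (log2 change 0.65 ± 0.20, adjusted p = 0.046). The death receptor Fas rose at a low level (5.13 and 3.18 CPM in KO, against 0.229 and 0.841 CPM in WT; log2 change 2.89 ± 0.54, adjusted p = 0.009). Among death effectors, Bbc3 (0.52 ± 0.19), Pmaip1 (0.54 ± 0.22) and Bax (-0.63 ± 0.23) did not pass the test. Perp belongs to this list and to the desmosome genes above. Btg2 counts among those that rose here, among the deadenylation factors and among the immediate early genes. The calls of Ccng1 and Cdkn1a ended with either KO library left out (adjusted p up to 0.52).

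Of the G1 regulators, 3 of 20 rose and 5 fell (0 to 5 higher and 1 to 8 lower with 1 library left out). Rb1, the retinoblastoma protein, had 96.9 and 119 CPM in KO, against 52.1 and 51.9 CPM in WT (log2 change 1.06 ± 0.21, adjusted p = 0.0099), while E2f1 and E2f2, activator members of the E2F family, had 31.5 and 30.4 CPM in KO, against 65.9 and 90.1 CPM in WT for E2f1 (log2 change -1.34 ± 0.22, adjusted p = 0.0058) and 13 and 14.4 CPM in KO, against 36.3 and 41.3 CPM in WT for E2f2 (log2 change -1.50 ± 0.22, adjusted p = 0.0039). The inhibitors moved apart: Cdkn1a and Cdkn2b (0.92 ± 0.26) rose and Cdkn1b, p27, fell (-1.01 ± 0.21). Genes of DNA replication (0 higher and 2 lower of 45) and of mitosis (1 higher and 3 lower of 41) had these calls beside the 12.3% higher and 9.41% lower of all genes. With 1 library left out, 0 to 4 replication genes were higher and 0 to 11 lower, the most lower without WT replicate 2. In the same fits 0 to 14 mitotic genes were higher and 0 to 8 lower, the most higher without WT replicate 1. The mitotic genes called were Cdc20 (0.81 ± 0.25), an activator of the anaphase-promoting complex, which rose, and Top2a (-0.76 ± 0.24), Cenpa (-0.90 ± 0.24) and Spc24 (-0.69 ± 0.20), which fell. The calls of Cdkn2b, Cdkn1b, Cdc20, Top2a, Cenpa and Spc24 ended with either KO library left out and those of Rb1 and E2f1 with KO replicate 2 left out (adjusted p up to 0.62).

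Several immediate early genes, which encode AP-1 and related factors induced within minutes of a stimulus, rose: 7 of 20, with 1 lower (median 0.58; 3 to 11 higher with 1 library left out). Fosl1 (ENSMUSG00000024912; chromosome 19, 5447547 to 5455946, plus strand, GRCm38) had 8.39 and 10.0 CPM in KO, against 0.229 and 0.259 CPM in WT (log2 change 5.19 ± 0.42, adjusted p = 0.0011), and Fosl2 20.0 and 38.2 CPM in KO, against 3.43 and 4.85 CPM in WT (log2 change 2.81 ± 0.37, adjusted p = 0.0027). Junb had 70.9 and 107 CPM in KO, against 30.5 and 33.8 CPM in WT (log2 change 1.47 ± 0.24, adjusted p = 0.0057), Jun rose as well (1.06 ± 0.24), and Fos did not pass the test (9.45 and 12.5 CPM in KO, against 4.42 and 9.06 CPM in WT; 0.70 ± 0.36). Ier2 fell (-0.83 ± 0.20), and Egr1 (-0.56 ± 0.25) and Myc (-0.35 ± 0.25) did not pass the test. Fosl1 passed the filter on low counts through the KO libraries alone, so the number that rose describes only members that passed. That number includes Btg2, which is also counted among the p53 targets. Over all genes 12.3% rose. The calls of Junb and Jun ended with KO replicate 2 left out and that of Ier2 with either KO library left out (adjusted p up to 0.42).

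Stress pathways held genes called in both directions, beside 12.3% higher and 9.41% lower over all genes. In each stress list below, the share called higher was under that of all genes. Of 22 ATF4 targets (median -0.51; 1 to 4 higher and 1 to 15 lower with 1 library left out), 4 fell, among them the amino acid transporter Slc7a5 (182 and 135 CPM in KO, against 326 and 439 CPM in WT; log2 change -1.27 ± 0.26, adjusted p = 0.011), and 2 rose, Ddit4, an inhibitor of mTORC1 (470.3 and 428 CPM in KO, against 168 and 162 CPM in WT; log2 change 1.45 ± 0.22, adjusted p = 0.0042), and Cebpb (1.60 ± 0.29). Of 21 heat shock genes (1 to 9 higher and 0 to 0 lower with 1 library left out), Cryab (27.2 and 46.5 CPM in KO, against 5.03 and 7.44 CPM in WT; log2 change 2.56 ± 0.33, adjusted p = 0.0027) and Hspb8 (0.75 ± 0.21) rose and none fell, beside 12.3% higher over all genes. Of 22 NRF2 targets (1 to 5 higher and 0 to 9 lower with 1 library left out), Hmox1 (1.08 ± 0.21) and Gpx3 (1.46 ± 0.29) rose and Sod2 (-0.77 ± 0.24) fell. The calls of Slc7a5, Hspb8, Hmox1 and Sod2 ended with either KO library left out, that of Ddit4 with KO replicate 1 left out and that of Cebpb with KO replicate 2 left out (adjusted p up to 0.52).

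Germline genes and genes of the motile cilium were higher in part. Of 19 germline genes, 6 rose (4 to 10 with 1 library left out), including the RNA helicase Ddx4 (30.8 and 34.7 CPM in KO, against 9.83 and 9.51 CPM in WT; log2 change 1.76 ± 0.23, adjusted p = 0.0028), the RNA-binding protein Dazl (30.1 and 35.5 CPM in KO, against 13.9 and 12.7 CPM in WT; log2 change 1.30 ± 0.23, adjusted p = 0.0073) and Taf7l, a testis form of a TFIID subunit (21.6 and 32.8 CPM in KO, against 3.05 and 2.2 CPM in WT; log2 change 3.38 ± 0.33, adjusted p = 0.0015). Asz1, also called higher, had 3.13 and 2.31 CPM in KO, against 0.305 and 0.259 CPM in WT. It passed the filter on low counts through the KO libraries alone, so the number of germline genes that rose describes only members that passed. Over all genes 12.3% rose. Prdm1, a repressor needed for primordial germ cells, fell (17.8 and 15.3 CPM in KO, against 43.9 and 33.4 CPM in WT; log2 change -1.23 ± 0.24, adjusted p = 0.01). Of 23 cilium genes, 13 rose and 1 fell (median 0.86; 3 to 14 higher with 1 library left out). Foxj1, the master regulator of motile cilia, had 38.2 and 39.1 CPM in KO, against 2.82 and 3.56 CPM in WT (log2 change 3.59 ± 0.26, adjusted p = 0.0011), both KO libraries lying more than 10-fold above both WT libraries. Of the RFX factors that act with it, Rfx2 was the cilium gene that fell (61 and 54.4 CPM in KO, against 91.9 and 90.5 CPM in WT; log2 change -0.66 ± 0.20, adjusted p = 0.041), and Rfx3 did not pass the test (0.27 ± 0.27). The calls of Dazl and Prdm1 ended with KO replicate 2 left out and that of Rfx2 with either KO library left out (adjusted p up to 0.51).

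Genes of the 2-cell stage, expressed in ESCs by a rare subset of cells, had few reads. Of 14 in the files, 8 passed the filter on low counts, and a gene this low passes only through the KO libraries, so the number called among them is not evidence about the group. Zscan4d had 2.06 and 3.01 CPM in KO, against 0.457 and 0.518 CPM in WT, from 31 and 52 reads in KO and 6 and 8 in WT (log2 change 2.36 ± 0.45, adjusted p = 0.0093), and Tmem92 had 2.06 and 2.83 CPM in KO, against 0.229 and 0.259 CPM in WT (log2 change 3.28 ± 0.50, adjusted p = 0.0041). The call of Zscan4d ended with KO replicate 2 left out (adjusted p = 0.13). Together the listed genes held 0.0012% and 0.00159% of gene counts in KO, against 0.000145% and 0.00015% in WT. Zscan4 and Usp17l genes have near-identical copies, so reads may be split between copies or lost.

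Other lineages showed single genes moving in both directions, beside 12.3% higher and 9.41% lower over all genes. Among 19 primitive endoderm markers, 2 rose and 4 fell (1 to 5 higher and 2 to 8 lower with 1 library left out), while the defining factors Gata6 (5.92 and 5.9 CPM in KO, against 5.18 and 6.4 CPM in WT; 0.03 ± 0.28) and Gata4 (10.5 and 10.8 CPM in KO, against 8.92 and 10.3 CPM in WT; 0.14 ± 0.25) did not pass the test. Among 9 neuroectoderm markers, 3 rose, among them Nes (20.0 and 31.5 CPM in KO, against 11.7 and 10.7 CPM in WT; log2 change 1.20 ± 0.28, adjusted p = 0.019), and 3 fell, among them Pax6 (1.2 and 0.636 CPM in KO, against 4.04 and 4.14 CPM in WT; log2 change -2.16 ± 0.41, adjusted p = 0.0091). Of 22 imprinted genes, H19, a long noncoding RNA, and its neighbour Igf2, a growth factor, rose together: H19 had 76.7 and 139 CPM in KO, against 14.9 and 39.9 CPM in WT (log2 change 1.97 ± 0.44, adjusted p = 0.016) and Igf2 68 and 135 CPM in KO, against 14.9 and 41 CPM in WT (log2 change 1.86 ± 0.46, adjusted p = 0.023). Peg10, a retrotransposon-derived gene needed for the placenta, had 716 and 1008 CPM in KO, against 417 and 259.7 CPM in WT (log2 change 1.35 ± 0.31, adjusted p = 0.018), and Peg3 fell (-1.15 ± 0.26). Col1a1 was the 1 of 6 tested feeder markers that was called (5.19 and 7.52 CPM in KO, against 1.68 and 3.36 CPM in WT; log2 change 1.32 ± 0.39, adjusted p = 0.043), and 4 defining feeder markers were at 0. Of 8 blood and endothelial markers, Gata1 (6.66 and 6.65 CPM in KO, against 2.44 and 1.55 CPM in WT; 1.74 ± 0.34) and Runx1 (1.21 ± 0.35) rose, with Ptprc at 0. As summed CPM of library totals, the markers used as a check gave 45.6 and 49.5 in KO and 37.8 and 37.2 in WT for primitive endoderm, 1.62 and 1.24 in KO and 4.19 and 4.14 in WT for neuroectoderm, and 47.5 and 48.8 in KO and 27.2 and 46 in WT, nearly all Tek, for blood and endothelium. The calls of Nes, Pax6 and Col1a1 ended with KO replicate 2 left out, those of Peg10, Peg3 and Runx1 with either KO library left out, that of H19 with WT replicate 1 left out and that of Igf2 with either WT library left out (adjusted p up to 0.44).

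**Figure D3:**
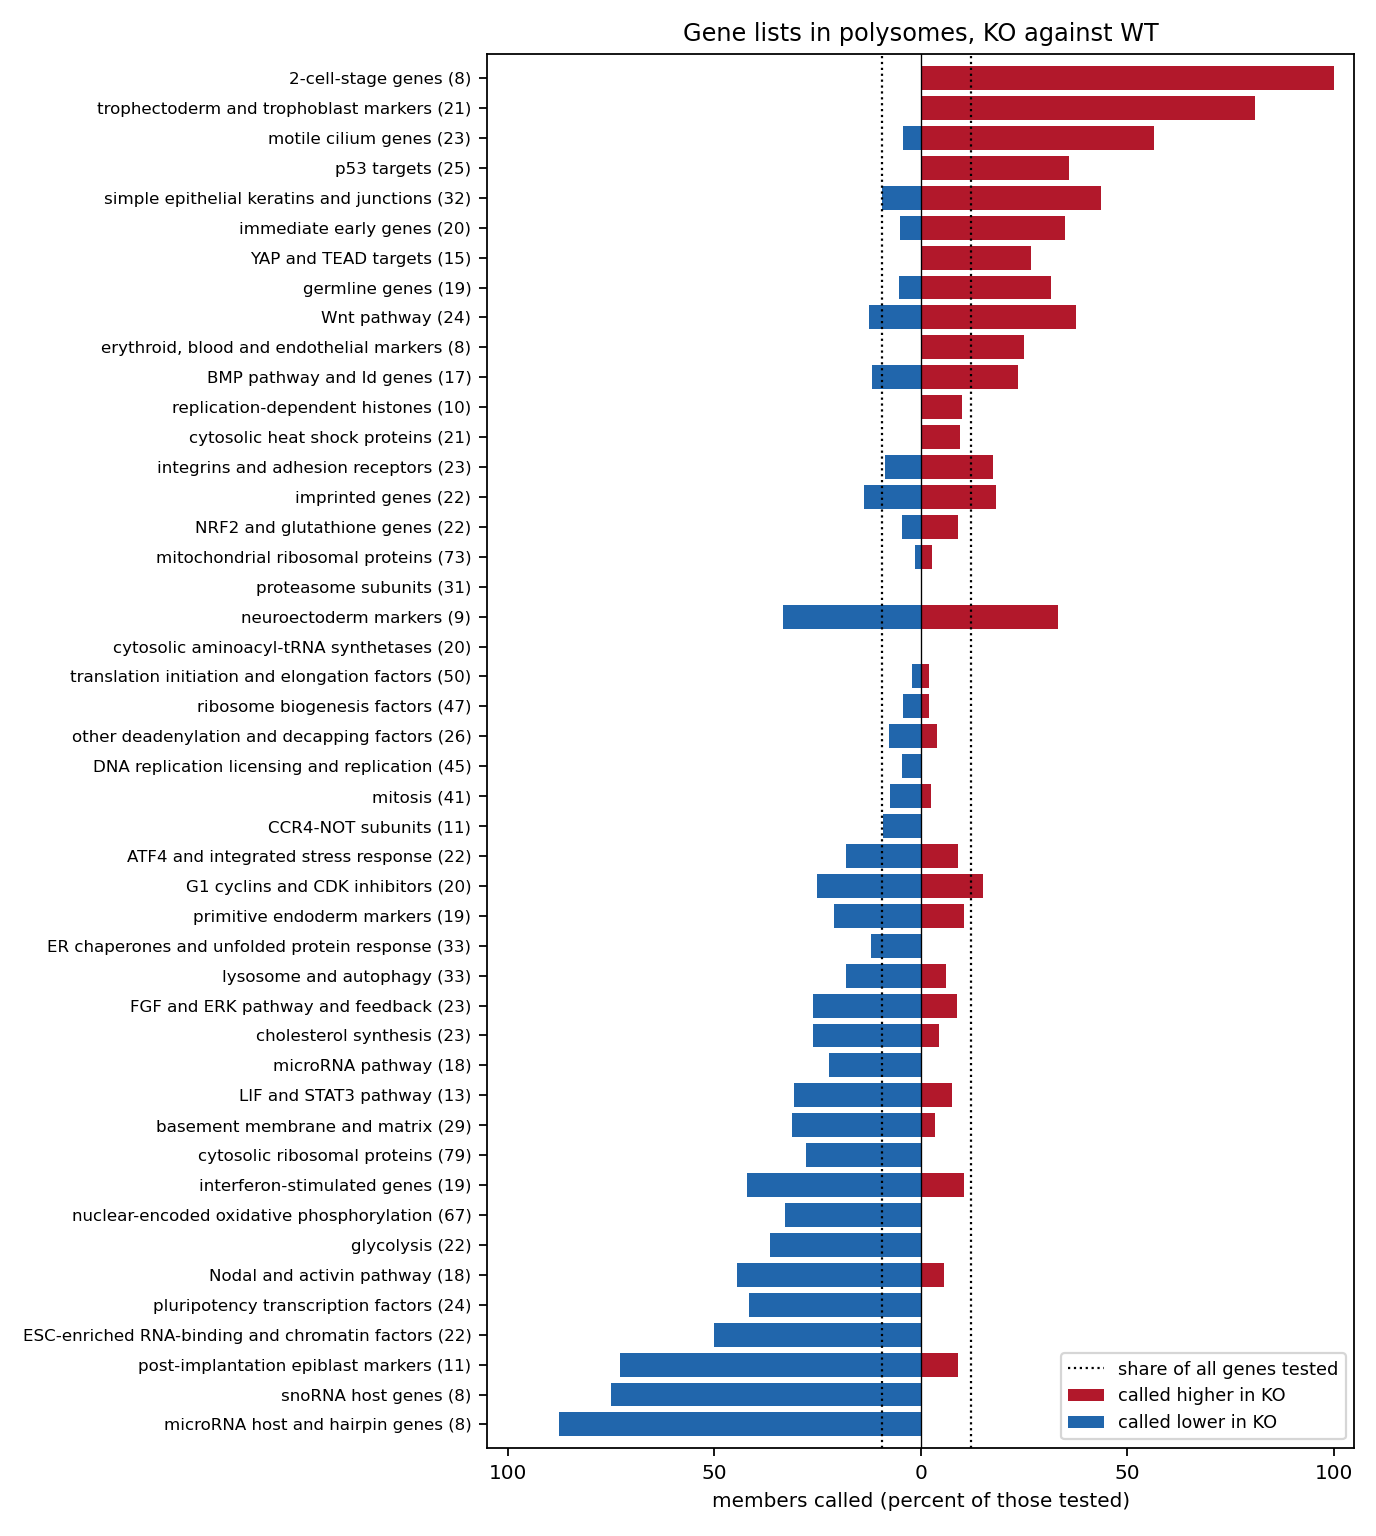
Share of the tested members of each gene list called higher (red, to the right) or lower (blue, to the left) in KO, with the number tested in parentheses and dotted lines at the shares over all genes, 12.3% and 9.41%. Some genes are on several lists. Trophectoderm, cilium, keratin, Wnt and p53 lists are among those that reach far to the right. Among those that reach to the left are the ESC, epiblast, Nodal and energy metabolism lists. Lists of microRNA and snoRNA hosts also reach far to the left, and the WT libraries differed widely in them. All tested members of the list with Zscan4d were called higher. Genes that low pass the filter on low counts only through the KO libraries, so that share is not evidence about the group.

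Messengers of energy metabolism fell in part, and none rose. Of 67 nuclear-encoded subunits of oxidative phosphorylation, 22 fell (median -0.58), with 0 to 43 called lower with 1 library left out. Cox6c, a subunit of cytochrome c oxidase, had 95.3 and 89.5 CPM in KO, against 168 and 265 CPM in WT (log2 change -1.23 ± 0.26, adjusted p = 0.012), and Ndufb5, of complex I, 89.4 and 71.1 CPM in KO, against 135 and 245 CPM in WT (log2 change -1.24 ± 0.30, adjusted p = 0.02). Of 22 glycolytic genes, 8 fell (median -0.62). Hk2, the hexokinase of ESCs and many tumours, had 86.9 and 94.9 CPM in KO, against 271 and 278 CPM in WT (log2 change -1.59 ± 0.21, adjusted p = 0.0027), and Pfkp, a phosphofructokinase, 154 and 139 CPM in KO, against 309.7 and 346 CPM in WT (log2 change -1.16 ± 0.22, adjusted p = 0.0086). Both glycolytic genes had similar WT libraries and lower KO libraries. Gapdh did not pass the test (120.4 and 103 CPM in KO, against 155 and 117 CPM in WT; -0.28 ± 0.22) and has many processed pseudogenes that can take its reads. With 1 library left out, 1 to 17 glycolytic genes were called lower. The calls of Cox6c, Ndufb5 and Pfkp ended with either KO library left out and that of Hk2 with KO replicate 1 left out (adjusted p up to 0.25).

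Genes of cholesterol synthesis, which SREBP2 drives, were lower in part, beside 12.3% higher and 9.41% lower over all genes. Of 23 tested, 6 fell and 1 rose (median -0.49; 0 to 15 lower with 1 library left out). Srebf2, which encodes that factor, had 265 and 253 CPM in KO, against 475 and 599 CPM in WT (log2 change -1.05 ± 0.24, adjusted p = 0.017). Insig1, which retains its activator in the ER, had 112 and 90.2 CPM in KO, against 214 and 271 CPM in WT (log2 change -1.26 ± 0.23, adjusted p = 0.0082). The enzymes Cyp51 (-1.03 ± 0.27) and Sqle (-0.97 ± 0.24) fell, and Pmvk rose (0.71 ± 0.20). The calls of Srebf2, Insig1, Cyp51, Sqle and Pmvk ended with either KO library left out (adjusted p up to 0.45).

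Cytosolic ribosomal protein messengers were lower in part, and other parts of the translation machinery had counts of calls that moved with the WT library. Of 79 ribosomal protein genes, 22 fell and none rose (median -0.67, range -2.06 to -0.11; 5 to 69 lower with 1 library left out), and in 72 of them both KO libraries lay below both WT libraries, against 32.4% of all genes. Their summed counts were 2.03% and 1.91% of gene counts in KO, against 2.34% and 2.66% in WT. Rpl10 had 8.19 and 9.54 CPM in KO, against 17.5 and 36.4 CPM in WT (log2 change -1.60 ± 0.35, adjusted p = 0.015), and Rpl13 29 and 27.4 CPM in KO, against 46.6 and 74.4 CPM in WT (log2 change -1.10 ± 0.26, adjusted p = 0.018). Ribosomal protein genes have many processed pseudogenes, and how reads with several alignments were treated was not stated, so their levels are uncertain. Translation factors (1 higher and 1 lower of 50; median -0.08), ribosome biogenesis factors (1 and 2 of 47; median -0.02) and mitochondrial ribosomal proteins (2 and 1 of 73; median -0.09) had few calls with all 4 libraries. Without WT replicate 1 the higher calls were 12 translation factors, 13 ribosome biogenesis factors and 11 mitochondrial ribosomal proteins. Without WT replicate 2 the lower calls were 11, 8 and 10. Eif2b4, a subunit of the exchange factor for eIF2, rose (164 and 150.0 CPM in KO, against 83.1 and 56.9 CPM in WT; log2 change 1.17 ± 0.24, adjusted p = 0.011), and Pabpc4, a cytoplasmic poly(A)-binding protein, fell (51.3 and 51 CPM in KO, against 93.9 and 112 CPM in WT; log2 change -1.01 ± 0.20, adjusted p = 0.011). Eef1a1 (2954 and 2813 CPM in KO, against 3753 and 3579.8 CPM in WT; -0.35 ± 0.28) and Actb (1952 and 1879 CPM in KO, against 2123 and 1318 CPM in WT; 0.15 ± 0.31) did not pass the test. The calls of Rpl13, Eif2b4 and Pabpc4 ended with either KO library left out (adjusted p up to 0.18).

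Several matrix genes of the basement membrane fell. Fn1, fibronectin (ENSMUSG00000026193; chromosome 1, 71585520 to 71653200, minus strand, GRCm38), had 101 and 83.5 CPM in KO, against 576 and 936 CPM in WT (log2 change -3.03 ± 0.31, adjusted p = 0.0017). Nid2 had 122 and 115 CPM in KO, against 327 and 626 CPM in WT (log2 change -2.01 ± 0.32, adjusted p = 0.0048), and the laminin chain Lamc1 118 and 109 CPM in KO, against 293 and 541 CPM in WT (log2 change -1.87 ± 0.31, adjusted p = 0.0054). All 3 were also higher in WT replicate 2 than in WT replicate 1, and KO lay below both. Of 29 genes, 9 fell and 1, Col6a1, rose (1.89 ± 0.46). Against WT replicate 1 alone the median log2 ratio of the list was 0.22, and against WT replicate 2 alone -0.58, so that list's direction turned with the WT library, and without WT replicate 2 the test called 9 higher and 9 lower. Without WT replicate 1 it called 1 higher and 19 lower. The integrins Itga8 (2.62 ± 0.38) and Itgb4 (1.82 ± 0.30) rose and Itgb1 (-1.0 ± 0.28) fell. Of 19 interferon-stimulated genes 8 fell and 2 rose (median -0.02; 1 to 6 higher and 2 to 9 lower with 1 library left out). Those that rose were Tap1, a peptide transporter (1.30 ± 0.36), and Usp18, an ISG15 protease, with 16 and 22 reads in KO and 1 and 0 in WT. Usp18 passed the filter on low counts through the KO libraries alone. For this list and the lysosomal list below, the share called higher was under the 12.3% of all genes. Those that fell included Ifitm1 (80.2 and 70.8 CPM in KO, against 261 and 436 CPM in WT; log2 change -2.21 ± 0.28, adjusted p = 0.0026) and Ifitm3 (50.4 and 41.5 CPM in KO, against 125 and 215 CPM in WT; log2 change -1.89 ± 0.28, adjusted p = 0.0039), membrane proteins that ESCs express without interferon. Lysosomal genes had 6 lower and 2 higher of 33 (0 to 6 higher and 0 to 16 lower with 1 library left out), among them Hexa, a lysosomal hydrolase (79.2 and 64.8 CPM in KO, against 125 and 239 CPM in WT; -1.34 ± 0.31), and Sqstm1. The calls of Col6a1, Tap1 and Hexa ended with KO replicate 2 left out and that of Itgb1 with either KO library left out (adjusted p up to 0.37).

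The WT libraries differed from each other in whole classes of RNA. At a log2 ratio of CPM plus 0.5, 786 genes were more than 1 apart between the WT libraries and 81 between the KO libraries. Higher in WT replicate 2 than in WT replicate 1 were mitochondrially encoded mRNAs (median log2 ratio 2.02), microRNA hairpins and hosts (1.73), nuclear long noncoding RNAs (1.49), snoRNA host genes (1.40), matrix genes (0.92), chaperones of the endoplasmic reticulum (ER) (0.77) and lysosomal genes (0.65). Lower in it were aminoacyl-tRNA synthetases (-0.52), proteasome subunits (-0.51), translation factors (-0.39) and ribosome biogenesis factors (-0.37). Among protein-coding genes of an average log2 CPM of at least 5, mt-Nd1, Rpl10a, mt-Nd2, Rsrp1, mt-Nd4 and mt-Co1 had the highest ratios, and Ago2, Klf5, Trim71, Arid5b, Rps6ka2 and Spry4 the lowest. Klf5 had 115 and 117 CPM in KO, against 166 and 72.2 CPM in WT, and Ago2, the slicing Argonaute, 114 and 116 CPM in KO, against 193 and 83.1 CPM in WT. In both genes the KO libraries lay between the WT libraries, so the sign of the change was set by the WT library used.

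**Figure D4:**
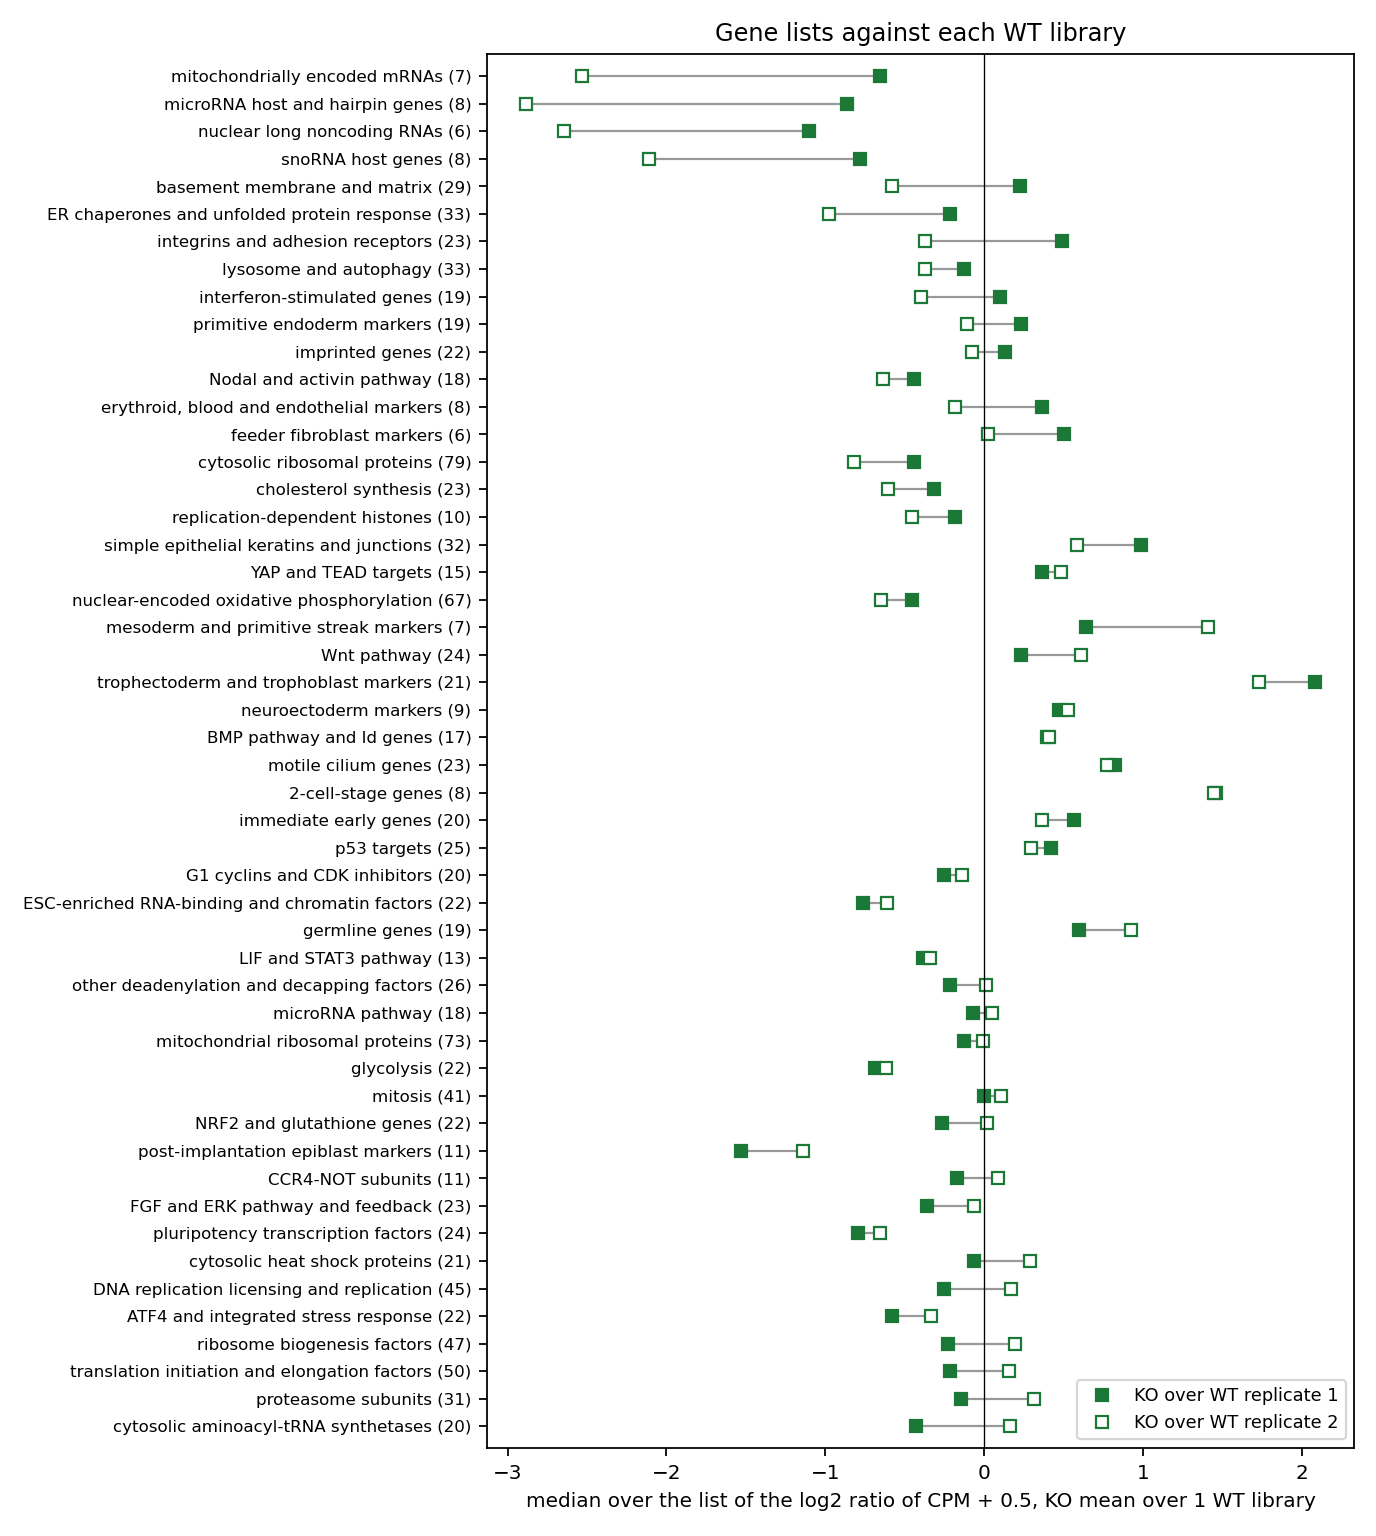
Median over each list of the log2 ratio of CPM plus 0.5, KO mean over WT replicate 1 (filled squares) and over WT replicate 2 (open squares), joined by a line, with lists ordered by the ratio of WT replicate 2 to WT replicate 1. Trophectoderm, epiblast and pluripotency lists keep their side of 0 against either library, whereas the matrix, integrin, proteasome and aminoacyl-tRNA synthetase lists change sides.

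These differences carried into the comparison with KO. Mitochondrially encoded mRNAs, of which 7 of 13 passed the filter on low counts, had 6 lower in KO (median -1.88). Against WT replicate 1 alone their median was -0.66 and against WT replicate 2 alone -2.53. mt-Cytb, which encodes cytochrome b, had 3335 and 2469.5 CPM in KO, against 4581 and 16769 CPM in WT (log2 change -1.88 ± 0.55, adjusted p = 0.039), and its change was -0.67 without WT replicate 2 (adjusted p = 0.0067). Both KO libraries lay below both WT libraries, with WT replicate 2 far above the other 3. Leaving the mitochondrially encoded genes out of the fit gave 1859 genes higher and 1418 lower. Malat1, a nuclear long noncoding RNA, had 107 and 319 CPM in KO, against 417 and 2093 CPM in WT (log2 change -2.56 ± 0.72, adjusted p = 0.035). Gas5, a snoRNA host, had 61.9 and 84.5 CPM in KO, against 132 and 397 CPM in WT (log2 change -1.85 ± 0.44, adjusted p = 0.021). The 8 tested snoRNA hosts had 6 lower, with a median of -0.78 against WT replicate 1 and -2.11 against WT replicate 2. The share of reads outside annotated genes was also highest in WT replicate 2. Between the KO libraries that share was higher in replicate 2 (4.75% and 6.61%), while mitochondrially encoded mRNAs were lower in it (1.16% and 0.912% of gene counts). The part of that share in the results was not tested. The call of mt-Cytb ended with either KO library left out (adjusted p up to 0.28). The call of Malat1 ended with either WT library left out (adjusted p = 0.23 and 0.64) and with KO replicate 1 left out (adjusted p = 0.05).

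ER chaperones are a case where the test depended on the WT pair. Of 33 tested, 4 fell and none rose, with a median of -0.65, beside 9.41% lower over all genes. Hsp90b1, the ER form of HSP90, had 219 and 261 CPM in KO, against 403 and 807 CPM in WT (log2 change -1.33 ± 0.33, adjusted p = 0.024), and Hspa5, the chaperone BiP, 265 and 326 CPM in KO, against 335 and 700.2 CPM in WT (log2 change -0.81 ± 0.34, adjusted p = 0.12). For both, KO lay below WT replicate 1 and further below WT replicate 2. Without WT replicate 1, 32 of the 33 were called lower, and without WT replicate 2, 6 were. Of 31 proteasome subunits 0 were called in either direction, also by DESeq2, and 1 in each direction had an unadjusted p under 0.05, but 14 were higher and 1 lower without WT replicate 1 and 5 were lower without WT replicate 2. The call of Hsp90b1 ended with either KO library left out (adjusted p up to 0.25).

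**Figure D5:**
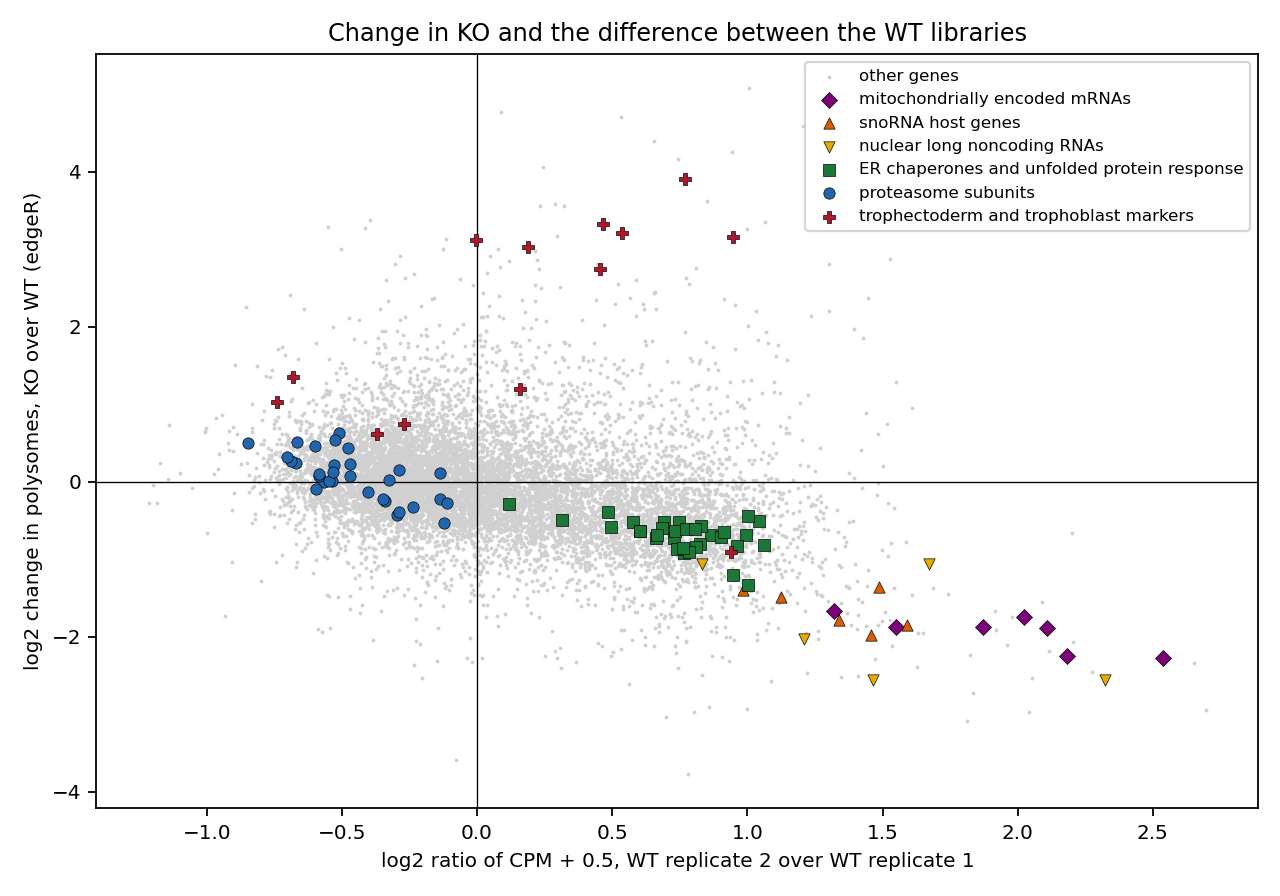
Log2 change in polysomes, KO over WT (vertical axis), against the log2 ratio of CPM plus 0.5 of WT replicate 2 to WT replicate 1 (horizontal axis) for genes with an average log2 CPM of at least 3, with 6 lists marked. Both axes use the WT libraries, so they are linked by construction; mitochondrial, snoRNA host, nuclear and ER genes lie at the lower right, proteasome subunits near 0 on the left, and trophectoderm markers high at ratios from -0.74 to 0.95.

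MicroRNA hairpins of the cluster from Mir290a to Mir295, the main microRNA locus of mouse ESCs, had reads in these libraries. Reads over a hairpin come from the primary transcript or its fragments and do not measure the mature microRNA. All 6 hairpin genes of the cluster that passed the filter on low counts were called lower. Of these, Mir291a and Mir292 had under 10 reads in both KO libraries and passed through the WT libraries alone, so the number describes only those that passed. Mir295 (ENSMUSG00000077886; chromosome 7, 3220773 to 3220841, plus strand, GRCm38) had 1.73 and 2.72 CPM in KO, against 6.56 and 28.6 CPM in WT (log2 change -2.97 ± 0.62, adjusted p = 0.013), from 26 and 47 reads in KO and 86 and 442 in WT. Mir294 had 1.07 and 2.08 CPM in KO, against 4.88 and 19.3 CPM in WT (log2 change -2.93 ± 0.62, adjusted p = 0.013), and Mir17hg, the host of the miR-17-92 cluster, 3.33 and 6.36 CPM in KO, against 9.61 and 64.9 CPM in WT (log2 change -2.94 ± 0.74, adjusted p = 0.024). All KO libraries lay below both WT libraries, and WT replicate 2 was several fold above WT replicate 1. Without WT replicate 2, the calls of Mir291a, Mir292 and Mir293 ended (adjusted p = 0.25, 0.16 and 0.23) with changes of -1.29, -1.58 and -0.84. Those of Mir291a and Mir292 ended also without KO replicate 1 (adjusted p = 0.26 and 0.14).

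The mature 3p arms of these hairpins are shown because their seeds (bases 2 to 8, in capitals) sort the cluster into targeting groups. Sequences are from RefSeq (GRCm38.p6, chromosome 7, plus strand), written 5′ to 3′, and a 3p arm was found for 5 of the 6 called hairpins.
miR-291a-3p (chr7:3218968-3218989): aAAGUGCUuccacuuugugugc
miR-294-3p (chr7:3220691-3220712): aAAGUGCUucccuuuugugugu
miR-295-3p (chr7:3220815-3220837): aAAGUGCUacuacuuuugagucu
miR-291b-3p (chr7:3219529-3219550): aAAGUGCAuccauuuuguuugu
miR-293-3p (chr7:3220390-3220411): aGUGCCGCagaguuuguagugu
The first 3 share the seed AAGUGCU, while miR-291b-3p has AAGUGCA and miR-293-3p has GUGCCGC, and all of them hold GUGC within the seed.

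Messengers with a match to the shared seed were looked at in the same fit. The longest annotated 3′ UTR of each gene (GENCODE M21) was searched on the transcript strand for AGCACTT, the complement of AAGUGCU, without regard to overlap with other motifs, and 2346 of 13904 genes (16.9%) held it. Genes with the match were called higher in 9.76% and lower in 9.93%, and genes without it in 13.5% and 8.56%. Their median changes were -0.07 with and 0.01 without the match. UTRs with a match are longer (median 2458 against 928 nucleotides), and in the top quartile of UTR length, from 2217 nucleotides, the medians were -0.09 with and -0.03 without, whereas in the bottom quartile they were 0.09 and 0.04. Against WT replicate 1 alone the medians over all UTRs were -0.03 and 0.04, and against WT replicate 2 alone -0.06 and 0.03. These are descriptions over genes, which are not independent replicates, and a match is not a site in use. Of 18 genes of the microRNA pathway, 4 fell and none rose, beside 9.41% lower and 12.3% higher over all genes. Those that fell were Lin28a, Lin28b (-0.97 ± 0.25), Ago1 (-0.81 ± 0.20) and Tnrc6c (-0.83 ± 0.22). The calls of Lin28b, Ago1 and Tnrc6c ended with either KO library left out (adjusted p up to 0.36).

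The change varied little with the length of the coding sequence. From the bottom to the top length quartile of 13967 nuclear protein-coding genes, 11.2%, 13.2%, 13.8% and 13.2% were called higher, 9.20%, 8.30%, 8.62% and 9.08% lower, and median changes were -0.08, 0.03, 0.03 and 0.02. Of 118 lincRNAs 26 fell and 10 rose, and 25 fell and 13 rose without WT replicate 2. Of 146 antisense genes 26 fell and 13 rose, and 22 fell and 22 rose without WT replicate 2. The median of antisense genes was 0.07 against WT replicate 1 and -0.38 against WT replicate 2. Of 292 processed pseudogenes 12 fell and 4 rose, and 40 fell and 4 rose without WT replicate 2. Over all genes 9.41% fell and 12.3% rose, and the difference between classes was not tested. The strand setting of the counting was not stated, so reads of an antisense gene and its partner may not be told apart. Of 24 snoRNA genes tested, 15 were lower, and 4 were without WT replicate 2.

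Whether a change in polysomes differed from the change in whole-cell RNA of the same day was tested as an interaction over 8 libraries, in which the WT whole-cell libraries carry the same E14Tg2a label. The fractions also differ as libraries. Reads outside annotated genes were 19.8% and 20.7% in WT and 22.3% and 23.7% in KO whole-cell libraries, against 4.75% to 12.9% in polysome libraries. Reads with several alignments were recorded for the whole-cell libraries only. The part of these differences in the result was not tested. Of 18303 genes tested, 2 (0.0109%) passed an adjusted p under 0.05, 1 in each direction, and 673 and 1631 had an unadjusted p under 0.05 with a positive and a negative difference. Levels of these 2 genes are given here as CPM of library totals, without TMM. Hist1h1c, a linker histone, was higher in KO than in WT polysomes (15.3 and 19.2 CPM in KO, against 5.28 and 4.67 CPM in WT). It was lower in KO than in WT whole-cell RNA (318 and 291 CPM in KO, against 452 and 420.2 CPM in WT). Its difference of changes was 2.31 ± 0.25 (adjusted p = 0.028). The levels of this histone, whose mRNA ends in a stem-loop, were far apart between the fractions in all libraries. Fgf1, a growth factor, was lower in KO polysomes (2.18 and 1.99 CPM in KO, against 6.43 and 10.0 CPM in WT) and higher in KO whole-cell RNA (9.29 and 9.16 CPM in KO, against 4.98 and 4.80 CPM in WT), a difference of -2.90 ± 0.33 (adjusted p = 0.028). DESeq2 called 32 positive and 35 negative, and leaving out WT polysome replicate 1 gave 1848 and 3111, against 24 and 47 without WT polysome replicate 2 and 0 by edgeR when any of the other 6 libraries was left out, where 512 to 830 positive and 405 to 1159 negative differences had an unadjusted p under 0.05.

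List medians in polysomes stood beside those in whole-cell RNA from the fit of 8 libraries as follows. Each comes from its own fit and filter, and the difference of such medians was not tested. They were -0.66 and -0.79 for pluripotency factors, -0.67 and -0.60 for ribosomal proteins, and -0.58 and -0.52 for oxidative phosphorylation. Trophectoderm markers had 2.63 in polysomes, or 2.08 and 1.73 as ratios to WT replicates 1 and 2 with 0.5 CPM added, and 1.42 in whole-cell RNA. ER chaperones had -0.65 and -0.35. No member of any list other than Hist1h1c passed the test of the difference.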

How the data were processed

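Per the labels' protocols and the submitters' processing notes, polysome fractions were sequenced the authors used STAR 2.3.0e for alignment to mm9 and HTSeq (version not given) for gene counts, and the deposited values are raw counts. Neither the strand setting nor the handling of reads with several alignments is recorded there. GENCODE M21 (GRCm38), joined by gene ID, gave symbols, biotypes and positions and named 32919 of 37991 IDs. Reads assigned to no gene (4.75% to 12.9% of a polysome library) and other non-gene lines were left out. Counts were filtered with filterByExpr (minimum count 10) and scaled by TMM, and KO was compared with WT by edgeR 4.0.16 (quasi-likelihood test, robust dispersions, R 4.3.3, limma 3.58.1), with Benjamini-Hochberg adjustment over 15157 genes and a threshold of 0.05. The interaction with whole-cell RNA used 8 libraries. Single-library ratios used CPM plus 0.5. The code was checked on simulated data.

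Members and gene lists were chosen with earlier results of these data known. Genes were named by rule: CCR4-NOT subunits, the 8 highest and 8 lowest changes, the 6 called genes of highest CPM in each direction, up to 4 called members per list and direction, fixed lineage and reference genes, and the 6 genes farthest apart each way between the WT libraries. A few uncalled list members are also named, chosen after their values were seen. Alternatives were RLE scaling, library totals, mitochondrial genes left out, no filter, a filter of 1 CPM in 2 libraries, DESeq2 1.42.0, a replicate block, a joint fit, non-robust dispersions and leaving out each library. Sequences are from RefSeq. Figures used matplotlib 3.10.9. Values of some list members are not reported here.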

Additional observations from a re-analysis of the deposited data

Results flagged for a closer look

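For Hist1h1c and Fgf1 the change in polysomes differed from the change in whole-cell RNA, by the interaction test of edgeR over 8 libraries with Benjamini-Hochberg adjustment. The difference (polysome change minus whole-cell change, log2) was 2.31 ± 0.25 for Hist1h1c (adjusted p = 0.028), with both KO polysome libraries above both WT ones and both KO whole-cell libraries below both WT ones. For Fgf1 it was -2.90 ± 0.33 (adjusted p = 0.028), with both fractions moving the opposite way to those of Hist1h1c. Both calls ended when any library other than a WT polysome library was left out, since no gene passed in those fits. Leaving out the mitochondrially encoded genes also ended the call of Fgf1 (adjusted p = 0.051).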

How the results depend on the processing

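The counts of genes called moved with the settings. Genes called higher numbered 2823 with a replicate block and 2904 in the joint fit of 8 libraries, against 1860, and genes called lower 2260 with no filter, 2633 with the block and 3859 in the joint fit, against 1427. Leaving out single libraries gave 557 to 3608 genes higher and 366 to 4219 lower. By construction, a fit without a WT library takes its spread from the KO pair, whose replicates lie closer together, and a fit without a KO library from the WT pair. The block added 4 calls among the named genes and ended none. No label says whether a replicate number marks a shared culture. Over the more abundant genes, log2 differences between replicates 1 and 2 in WT and in KO correlated at 0.293. Whether the replicates are paired was not tested. For the difference from whole-cell RNA, positive calls were 34 with no filter and 32 with DESeq2, negative calls 6 and 35, and 0 with mitochondrial genes left out, and single libraries left out gave 0 to 1848 positive and 0 to 3111 negative; the causes were not tested. Of 223 named genes called, 204 stayed called with library totals, 210 with DESeq2, 213 and 208 without WT replicates 1 and 2, and 131 and 106 without KO replicates 1 and 2. Klf5 (-0.53 to 0.69), Ago2 (-0.76 to 0.47) and Trim71 (-0.76 to 0.44) changed sign, being higher in KO without WT replicate 1. Library totals turned the medians of CCR4-NOT subunits (to 0.11), translation factors (0.10), ribosome biogenesis factors (0.16), DNA replication genes (0.10) and integrins (0.14) positive. Depth limited genes at a few reads, such as Elf5, with 0 and 1 reads in the WT libraries.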

Other observations

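Some genes outside the lists changed much at an average log2 CPM of at least 6. They were picked after their values were seen, share no list, and are given as a description. Anxa1, a calcium-dependent membrane-binding protein, had 102 and 175 CPM in KO, against 16.9 and 11.4 CPM in WT (log2 change 3.29 ± 0.32). Sfn, which encodes 14-3-3 sigma of epithelia, had 192 and 214 CPM in KO, against 24 and 17.9 CPM in WT (3.28 ± 0.24). Lmna, which encodes A-type lamins and is low in undifferentiated cells, had 114 and 143 CPM in KO, against 34.5 and 24.7 CPM in WT (2.11 ± 0.24), and S100a6 had 254 and 309 CPM in KO, against 39.1 and 76.3 CPM in WT (2.29 ± 0.32). Ccn1, a matricellular protein, had 90.6 and 162 CPM in KO, against 17.8 and 36.9 CPM in WT (2.21 ± 0.38), and Zyx, a focal adhesion protein, 85 and 142 CPM in KO, against 32.5 and 26.3 CPM in WT (1.95 ± 0.28). Every KO library of these genes lay above both WT libraries. Cald1 (1.76 ± 0.23), Lgals1 (1.74 ± 0.24) and Pdlim7 (1.57 ± 0.20) were also higher.

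At the other end of the same ranking, Slc7a3, a cationic amino acid transporter, had 27.1 and 21.2 CPM in KO, against 91.3 and 194 CPM in WT (-2.57 ± 0.35). Zfp57, which keeps methylation at imprinted regions, had 94.9 and 117 CPM in KO, against 254 and 608 CPM in WT (-2.02 ± 0.38), and Mov10, an RNA helicase, 45.9 and 45.7 CPM in KO, against 177.1 and 160.2 CPM in WT (-1.88 ± 0.20). Ogt, the O-GlcNAc transferase, had 74.3 and 95.2 CPM in KO, against 165 and 448 CPM in WT (-1.85 ± 0.41), and Mdk, a heparin-binding growth factor, 59.4 and 44.9 CPM in KO, against 179 and 341 CPM in WT (-2.32 ± 0.33). WT replicate 2 was the higher WT library for all of these but Mov10, and KO lay below both WT libraries in each.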
